A study of Homo sapiens with 18 samples.

Results

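The genes for the leukocyte integrins ITGAL, ITGAM, ITGAX, ITGAD, ITGB2, ITGA4 and ITGB7 were examined for the presence of linker histones H1.2 and H1.5 in HL-60/S4 cells. They were taken by name from the hg19 gene annotation and make up 7 of the 20098 protein-coding genes of chromosomes 1 to 22 and X. For each gene, the share of bases covered by H1 peaks was measured over the gene body, over the transcription start site (TSS) ± 1000 bp and over the TSS ± 50 kb. The TSS was the 5′ end of the annotated gene, and the start of the canonical transcript was used as an alternative. ITGAL, ITGAM, ITGAX and ITGAD lie on chromosome 16 and were compared with the other 3 genes, ITGB2 on chromosome 21, ITGA4 on chromosome 2 and ITGB7 on chromosome 12.

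Integrins are receptors built from an α and a β chain that hold leukocytes to other cells and to matrix. The αL, αM, αX and αD chains pair with the common β2 chain, and the pairs are known as LFA-1, Mac-1, CD11c/CD18 and CD11d/CD18. The α4 chain pairs with β1 to bind VCAM-1 and fibronectin, or with β7 to bind MAdCAM-1 in gut vessels. Linker histone H1 binds the nucleosome where DNA enters and leaves it and is found with condensed chromatin.

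HL-60/S4 is an established human myeloid leukemia line, and all cells were undifferentiated and received no treatment. In xChIP, antibody to H1.2 or H1.5 met chromatin that had been fixed and then sheared by sonication, and in xxChIP it entered permeabilized, fixed cells and was itself fixed in place ahead of the shearing. Each protocol was run with each antibody in 3 replicates, and the authors merged the peaks of the replicates into 1 list, giving 4 lists, H1.2 and H1.5 by xChIP and the same isotypes by xxChIP. The lists hold positions only, so that the sequencing depth is unknown, there is no spread between replicates, no test between lists or genes can be made, and all values below describe these 4 merged lists.

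The xChIP H1.2 list covered more of most of these gene bodies than the other lists did. ITGAL was covered over its whole length by xChIP H1.2 peaks, ITGAM over 71.8%, ITGAD over 63.6%, ITGB7 over 57.9%, ITGAX over 42.4% and ITGB2 over 39.2%, whereas ITGA4 was covered over 4.93%. Over all genes the median was 26.3% and the mean 36.9%, and 89.8% of all genes had less than the full coverage of ITGAL. Coverage by xChIP H1.2 exceeded that by each of the other 3 lists in 6 of the 7 gene bodies, beside 59% of all genes, and the exception was ITGA4, in which xChIP H1.5 was highest at 13.8%. At least 50% of the body was covered by xChIP H1.2 in 4 members, beside 31% of all genes. None of the 7 reached 50% in xChIP H1.5 (4.88% of all genes) or in the xxChIP lists (2.2% of all genes for H1.2, 1.8% for H1.5).

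**Figure D1:**
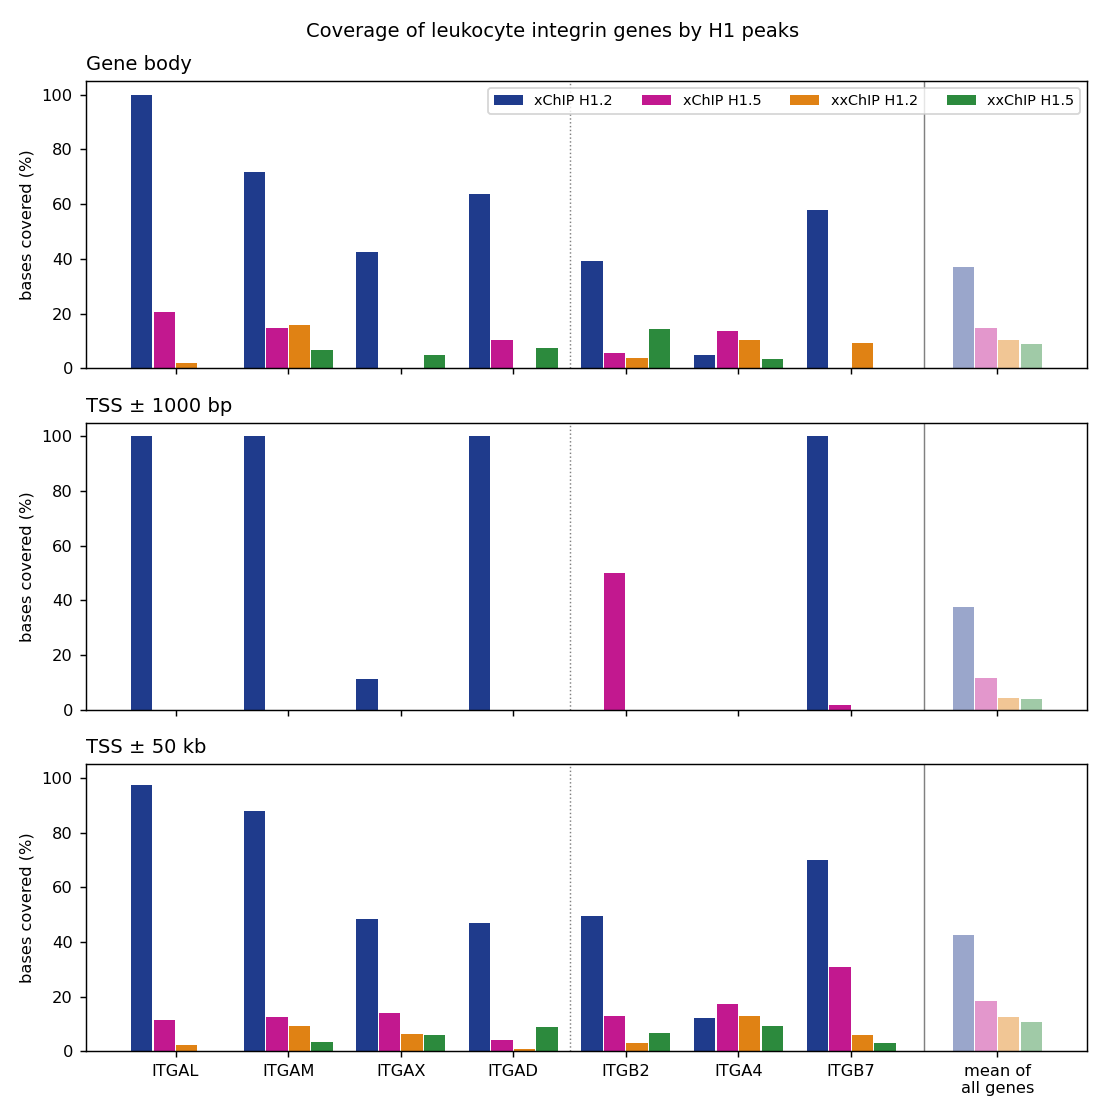
Percent of bases covered by the merged peaks of each list (y axis) for the 7 integrin genes (x axis) over the gene body (top), TSS ± 1000 bp (middle) and TSS ± 50 kb (bottom). Pale bars are the mean over all 20098 protein-coding genes, and the dotted line separates the 4 chromosome 16 genes from the other 3. Blue bars (xChIP H1.2) are the tallest for every gene body except that of ITGA4, and no xxChIP bar appears at any of these TSSs.

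At the TSS the members fell into 3 kinds. The xChIP H1.2 peaks covered the full TSS ± 1000 bp of ITGAL, ITGAM, ITGAD and ITGB7, a pattern seen in 29.3% of all genes. In ITGAX the window was covered over 11.4%, because the nearest peak began 772 bp downstream of the TSS. ITGB2 and ITGA4 had no xChIP H1.2 peak in this window. In all, 5 of 7 members had an xChIP H1.2 peak within 1000 bp, beside 48.2% of all genes. An xChIP H1.5 peak was present in 2 members, beside 21.6% of all genes, with 50.1% of the window covered in ITGB2 and 1.75% in ITGB7. No member had an xxChIP peak there, whether of H1.2 (8.78% of all genes) or of H1.5 (7.92%), a state shared with 86.4% of all genes, and the 5 members with an xChIP H1.2 peak and no xxChIP peak stand beside 42.6% of all genes.

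The choice of TSS changed the result for ITGB2. Its canonical transcript starts 11090 bp inside the annotated gene, and at this site xChIP H1.2 covered 100% and xxChIP H1.2 covered 87.3% of the ± 1000 bp window. That xxChIP H1.2 value exceeded those of 97.8% of all genes. With canonical starts, 6 members had an xChIP H1.2 peak (47.1% of all genes) and 1 had an xChIP H1.5 peak (20.7%), while in xxChIP 1 had an H1.2 peak (7.88%) and none had an H1.5 peak (7.14%). Canonical starts of the other 6 genes lie 0 to 184 bp from the gene 5′ end and left their calls as they were.

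The sequences around the TSS are shown for 3 genes, from 250 bp before to 50 bp after the TSS in the direction of transcription, read from hg19. ITGAM stands for windows wholly inside an xChIP H1.2 peak, ITGA4 for a window bare in all 4 lists, and ITGB2, at the gene 5′ end, for a window with xChIP H1.5 and no H1.2. Capitals mark matches on either strand to 3 strings. The string GAGGAA is the core bound by PU.1, a myeloid regulator, TGTGGT is the core bound by RUNX factors, and GGGCGG is the so-called GC box. The TATA box, searched as TATAAA on both strands, and the C/EBP string TTGCNNAA were looked for as well.
ITGAM, chr16:31271038-31271337, + strand: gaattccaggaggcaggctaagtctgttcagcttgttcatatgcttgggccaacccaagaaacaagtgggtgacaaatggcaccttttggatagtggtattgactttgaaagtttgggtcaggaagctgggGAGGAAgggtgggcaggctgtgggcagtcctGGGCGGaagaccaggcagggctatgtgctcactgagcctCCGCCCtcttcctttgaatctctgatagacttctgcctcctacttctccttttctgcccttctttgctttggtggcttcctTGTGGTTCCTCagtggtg
ITGA4, chr2:182321679-182321978, + strand: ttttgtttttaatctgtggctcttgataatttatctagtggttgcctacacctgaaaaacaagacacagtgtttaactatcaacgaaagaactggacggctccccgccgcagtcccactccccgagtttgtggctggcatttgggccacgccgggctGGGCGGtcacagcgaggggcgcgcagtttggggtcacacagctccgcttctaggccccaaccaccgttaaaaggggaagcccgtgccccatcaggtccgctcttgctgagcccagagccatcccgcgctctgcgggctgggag
ITGB2 at the gene 5′ end, chr21:46351855-46352154, - strand: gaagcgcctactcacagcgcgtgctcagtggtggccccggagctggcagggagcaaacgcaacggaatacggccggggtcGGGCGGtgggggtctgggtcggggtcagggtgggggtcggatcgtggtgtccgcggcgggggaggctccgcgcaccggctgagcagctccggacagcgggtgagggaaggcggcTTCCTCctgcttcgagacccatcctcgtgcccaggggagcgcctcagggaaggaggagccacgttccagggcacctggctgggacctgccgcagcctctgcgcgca

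GAGGAA occurred in 4 of the 7 windows at the gene 5′ end (ITGAL, ITGAM, ITGB2 and ITGB7), beside 27.3% of all protein-coding promoters of the same length. In ITGAM a match on the reverse strand, at 37 to 42 bp after the TSS, overlaps by 1 base the TGTGGT at 32 to 37 bp, so that both are written as a single run of capitals. ITGAM was the only member with TGTGGT, which 12.5% of promoters hold. GGGCGG was found in ITGAM, ITGAX, ITGB2 and ITGA4, beside 52.2% of promoters. With canonical starts these counts changed, with GGGCGG in ITGAM and ITGAX alone and GAGGAA in 5 members, ITGAX having joined the 4. The shares over all promoters were counted at gene 5′ ends. None of the 7 windows at the gene 5′ end held TATAAA (10.9% of promoters) or TTGCNNAA (9.14%). These matches are descriptions of the letters and not of bound sites. CpG content followed a different division, with 2 CpGs in the 300 bp of ITGAL, ITGAM and ITGB7, 4 in ITGAD, 6 in ITGAX, 18 in ITGA4 and 29 in ITGB2. Over the TSS ± 1000 bp the ratio of observed to expected CpG was 0.701 in ITGB2 and 0.718 in ITGA4, and from 0.129 (ITGB7) to 0.239 (ITGAD) in the other 5, beside a median of 0.612 over all genes. ITGB2 and ITGA4, the members with the CpG-rich windows, had no xChIP H1.2 at the gene 5′ end, and ITGAX had 11.4% of its CpG-poor window covered. At the canonical start of ITGB2, where xChIP H1.2 was present, the ratio was 0.356. The shares for CpG-rich and CpG-poor starts over all genes were not counted, and the paper reports CpG islands as enriched in xChIP H1.2. The part of CpG content in the calls of the 7 members was not tested.

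ITGAL (ENSG00000005844, chr16:30483979-30534888, + strand, 31 canonical exons) encodes αL, the ligand-binding chain of LFA-1 and a receptor for ICAMs. The whole gene lay inside a single xChIP H1.2 peak of 100893 bp, from 41.4 kb upstream to 59.5 kb downstream of the TSS. This peak is longer than 99.7% of the peaks in its list. Within it lay 6 xChIP H1.5 peaks of 1141 to 3300 bp, which covered 20.6% of the gene body and were densest in the middle of the gene (47.1% of the central segment when the gene is cut into 3 equal segments). The xxChIP lists covered little of the gene body, as in many genes. A single xxChIP H1.2 peak of 1067 bp, intronic and 34.8 kb downstream of the TSS, covered 2.10% of the gene. Of all genes, 40.6% had less. No xxChIP H1.5 peak touched the body, as in 42.0% of all genes, and the nearest lay 195099 bp upstream of the TSS. Within 50 kb of the TSS, xChIP H1.2 covered 97.5% of bases, more than in 97.3% of all genes, and xChIP H1.5 covered 11.4%. In xxChIP the same window held 2.30% for H1.2, with 11.6% of all genes lower, and 0 for H1.5, as in 5.90% of all genes.

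ITGAM (ENSG00000169896, chr16:31271288-31344213, + strand, 30 canonical exons) encodes αM (CD11b), a marker of granulocytes and monocytes. An xChIP H1.2 peak of 40180 bp ran from 10.2 kb upstream of the TSS to 30.0 kb downstream and held exons 1 to 12, so that the 5′ segment of the gene was covered in full. The next long peak (14025 bp) lay within an intron at 42.3 to 56.4 kb. Both xChIP H1.5 peaks of ITGAM were intronic, measured 2764 and 7870 bp, and covered 14.6% of the gene. ITGAM had the highest xxChIP H1.2 coverage of the 7 genes, with 15.9% in 6 peaks, and 3 xxChIP H1.5 peaks covered 6.50%. These xxChIP peaks were intronic in the canonical transcript except over exon 23, where an H1.2 peak of xChIP and peaks of both isotypes in xxChIP overlapped. The TSS ± 50 kb was covered over 87.8% by H1.2 and 12.5% by H1.5 in xChIP, and over 9.15% and 3.60% in xxChIP.

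ITGAX (ENSG00000140678, chr16:31366455-31394320, + strand, 30 canonical exons) encodes αX (CD11c), found on monocytes, macrophages and dendritic cells. It had 5 short xChIP H1.2 peaks of 1205 to 3830 bp, the nearest to the TSS lying over part of exon 2 and over exons 3 to 5. They covered 56.0% of the 5′ segment, 58.1% of the central segment and 13.0% of the 3′ segment. No xChIP H1.5 and no xxChIP H1.2 peak touched the gene body, as in 29.7% and 39.4% of all genes. The only xxChIP peak was of H1.5, 1341 bp long and intronic, at 18.91 to 20.25 kb, and a 1205 bp xChIP H1.2 peak lay wholly within it. In xChIP the TSS ± 50 kb was covered over 48.3% by H1.2 and 14.2% by H1.5, and in xxChIP over 6.26% and 5.92%.

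ITGAD (ENSG00000156886, chr16:31404656-31437826, + strand, 30 canonical exons) encodes αD, known from tissue macrophages. An xChIP H1.2 peak of 5251 bp spanned the TSS, and another of 13861 bp began within exon 16 and covered exons 17 to 30, and with them the whole 3′ segment of the gene. The xChIP H1.5 peaks (2040 and 1336 bp) and the xxChIP H1.5 peaks (1150 and 1282 bp) covered 10.2% and 7.33% of the body. No xxChIP H1.2 peak touched the body, as in 39.4% of all genes. At 11.3 to 13.6 kb a 2305 bp xChIP H1.2 peak held H1.5 peaks of both protocols, which shared 906 bp. The xChIP lists covered 46.8% (H1.2) and 4.12% (H1.5) of the TSS ± 50 kb, and the xxChIP lists 1.03% (H1.2) and 8.75% (H1.5). The xxChIP H1.2 value was the lowest of the 7 genes.

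**Figure D2:**
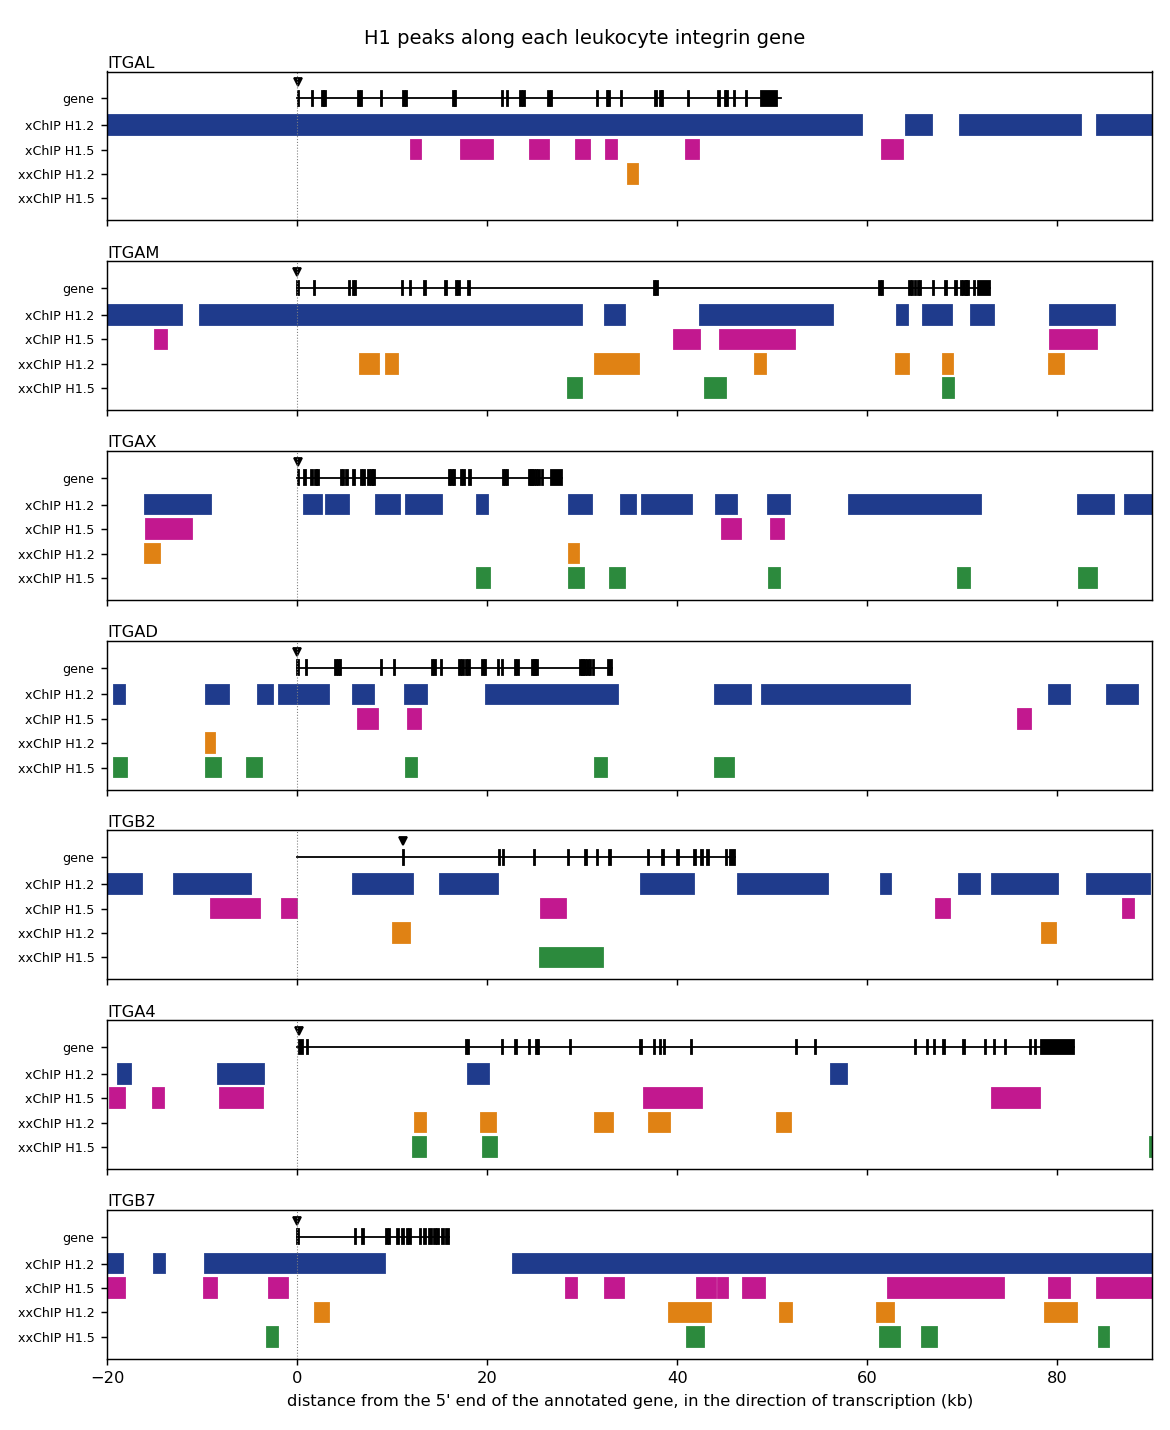
Peaks of the 4 lists along each integrin gene, by distance in kb from the annotated 5′ end in the direction of transcription (x axis). The upper track of each panel shows the gene as a line with the exons of the canonical transcript as boxes, the triangle marks the canonical start, and colored bars are merged peaks. ITGAL lies in a single xChIP H1.2 peak, the start of ITGA4 is free of peaks, and the canonical start of ITGB2 lies 11090 bp inside the annotated gene.

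ITGB2 (ENSG00000160255, chr21:46305868-46351904, - strand, 16 canonical exons) encodes β2 (CD18), the chain shared by the 4 α chains of chromosome 16. In this gene the isotypes occupied separate places in both protocols. An xChIP H1.2 peak of 6372 bp covered the canonical start and exon 1, and the xxChIP H1.2 peak of 1789 bp lay wholly inside it. Downstream, an xxChIP H1.5 peak of 6593 bp ran over exons 5 to 7, at 25.6 to 32.2 kb from the gene 5′ end, and a 2623 bp xChIP H1.5 peak lay wholly inside that. No base of the gene was shared between an H1.2 and an H1.5 peak of either protocol. Both H1.2 lists shared bases, and both H1.5 lists shared bases, in 5823 gene bodies, and in 14 of these (0.24%) no base was shared between the isotypes. Of the 2 members with both kinds of sharing, ITGAM and ITGB2, ITGB2 was such a gene, a feature singled out after its values were seen. The 5823 genes were not matched to ITGB2 in length or in number of peaks. The body of ITGB2 was touched by 3 H1.2 and 2 H1.5 peaks in xChIP and by 1 of each in xxChIP. Whether the share differs among genes with so few peaks was not tested. The remaining xChIP H1.5 peak of ITGB2, 1561 bp long, ended 1 bp past the gene 5′ end. The gene body was covered over 39.2% (H1.2) and 5.70% (H1.5) in xChIP and over 3.89% (H1.2) and 14.3% (H1.5) in xxChIP, the last being the highest xxChIP H1.5 value of the 7 genes. For the TSS ± 50 kb the xChIP values were 49.6% and 13.0%, and the xxChIP values were 3.10% and 6.59%, in the same order of isotypes.

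ITGA4 (ENSG00000115232, chr2:182321929-182403667, + strand, 28 canonical exons) encodes α4, the chain of VLA-4. It was the member with the least H1.2 in xChIP and the longest of the 7, and 74.4% of its 81.739 kb was in no list. Its 2 xChIP H1.2 peaks measured 2264 bp, over part of exon 4, and 1762 bp. The xChIP H1.5 peaks were longer, 6104 bp over exons 12 to 15 and 5147 bp over exons 24 to 27. The 5 xxChIP H1.2 peaks covered 10.1% of the gene and the 2 xxChIP H1.5 peaks 3.52%, and both of the latter overlapped an xxChIP H1.2 peak, with 2583 bp in common. The start was bare over a longer stretch than the window: the nearest xChIP peaks lay 3518 bp (H1.2) and 3625 bp (H1.5) upstream, and the nearest xxChIP peaks 12393 bp (H1.2) and 12211 bp (H1.5) downstream. Across the TSS ± 50 kb the 4 lists lay close together, at 12.2% for H1.2 and 17.4% for H1.5 in xChIP, and 12.9% for H1.2 and 9.32% for H1.5 in xxChIP. ITGA4 was the only member in which xxChIP H1.2 exceeded xChIP H1.2 over this window, and 13.4% of all genes had a lower xChIP H1.2 value.

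ITGB7 (ENSG00000139626, chr12:53585107-53601066, - strand, 16 canonical exons) encodes β7, the partner of α4 in lymphocyte homing to the gut. A single xChIP H1.2 peak of 18948 bp ran from 9701 bp upstream to 9246 bp downstream of the TSS. It covered exons 1 to 3, all of the 5′ segment and 73.8% of the central segment, and the 3′ segment, with most of the exons, was in no list. An xxChIP H1.2 peak of 1479 bp lay inside it at 1.90 to 3.38 kb and covered 9.27% of the gene. No H1.5 peak touched the body in either protocol, as in 29.7% (xChIP) and 42.0% (xxChIP) of all genes. The nearest lay 966 bp (xChIP) and 1992 bp (xxChIP) upstream. The surroundings were rich in xChIP peaks, with 70.0% of the TSS ± 50 kb covered by H1.2 and 31.0% by H1.5, the highest xChIP H1.5 value of the members, and 5.89% and 2.90% covered in xxChIP.

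The 4 chromosome 16 genes had, on average, more xChIP H1.2 than the other 3. The mean gene body coverage was 69.4% against 34.0%, a difference of 35.4 percentage points, but the ranges overlapped, with 42.4% to 100% on chromosome 16 and 4.93% to 57.9% elsewhere. In the TSS ± 50 kb the means were 70.1% and 43.9%, and the ranges again overlapped, since ITGB7 (70.0%) and ITGB2 (49.6%) lay above ITGAX (48.3%) and ITGAD (46.8%). Without ITGAL, the mean difference of the adjacent trio ITGAM, ITGAX and ITGAD from the other 3 genes was 25.2 points in the body and 17.1 points over the TSS ± 50 kb. For xChIP H1.5 the sign depended on the window, with means of 11.3% against 6.49% in the body and 10.6% against 20.5% over the TSS ± 50 kb. Both xxChIP lists had lower means on chromosome 16, with overlapping ranges, and ITGAM had the highest xxChIP H1.2 body coverage of the 7 genes (15.9%). The body means were 4.50% against 7.77% (H1.2) and 4.66% against 5.95% (H1.5), and the TSS ± 50 kb means were 4.69% against 7.29% and 4.57% against 6.27%. In the body these xxChIP directions do not hold throughout: with peaks of at least 2000 bp only, the xxChIP H1.2 difference became 0.739 points, and without ITGAL the xxChIP H1.5 difference became 0.266 points. Over the TSS ± 50 kb the xxChIP H1.5 difference without ITGAL was −0.178 points. Chromosome 16 as a whole was also lower in xChIP H1.5 and in both xxChIP lists than chromosomes 2, 12 and 21. The genes are not replicates of each other, and the windows of ITGAX and ITGAD share 61.8% of their bases.

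The whole of chromosome 16 was not rich in xChIP H1.2. It was covered over 27.0%, beside 26.4% of all chromosomes analysed, 24.2% of chromosome 21, 22.8% of chromosome 2 and 31.1% of chromosome 12. In the other lists it lay below all chromosomes together, at 7.69% against 16.3% for xChIP H1.5, 13.4% against 20.2% for xxChIP H1.2 and 11.4% against 17.2% for xxChIP H1.5. The xChIP H1.5 values of chromosomes 21, 2 and 12 were 15.3%, 13.3% and 20.6%. For xxChIP they were 17.2%, 20.8% and 22.7% (H1.2) and 12.6%, 16.3% and 20.7% (H1.5) in the same order. In xChIP H1.2 the stretch around the integrins, with 50.6% GC, stood well above its chromosome. The TSS ± 50 kb of all genes had a mean xChIP H1.2 coverage of 42.7% and a median GC content of 44.2%. The part of base composition in this was not tested. From 50 kb before ITGAL to 50 kb after ITGAD, over 1053.85 kb, xChIP covered 71.6% for H1.2 and 7.11% for H1.5, and xxChIP covered 2.48% and 1.51%. Most of this stretch is the interval of 736.399 kb between ITGAL and ITGAM, with 72.8%, 5.88%, 1.31% and 0.329% in the same order. From ITGAM to ITGAD, over 166.539 kb, the values were 59.0%, 11.3%, 8.54% and 6.96%, and in the 100 kb after ITGAD xChIP H1.2 stood at 32.9%. Both xxChIP lists were thus better represented over the adjacent trio than in the interval before it. Between ITGAX and ITGAD, 10.335 kb apart, xxChIP H1.5 covered 29.8% and xxChIP H1.2 10.0%.

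**Figure D3:**
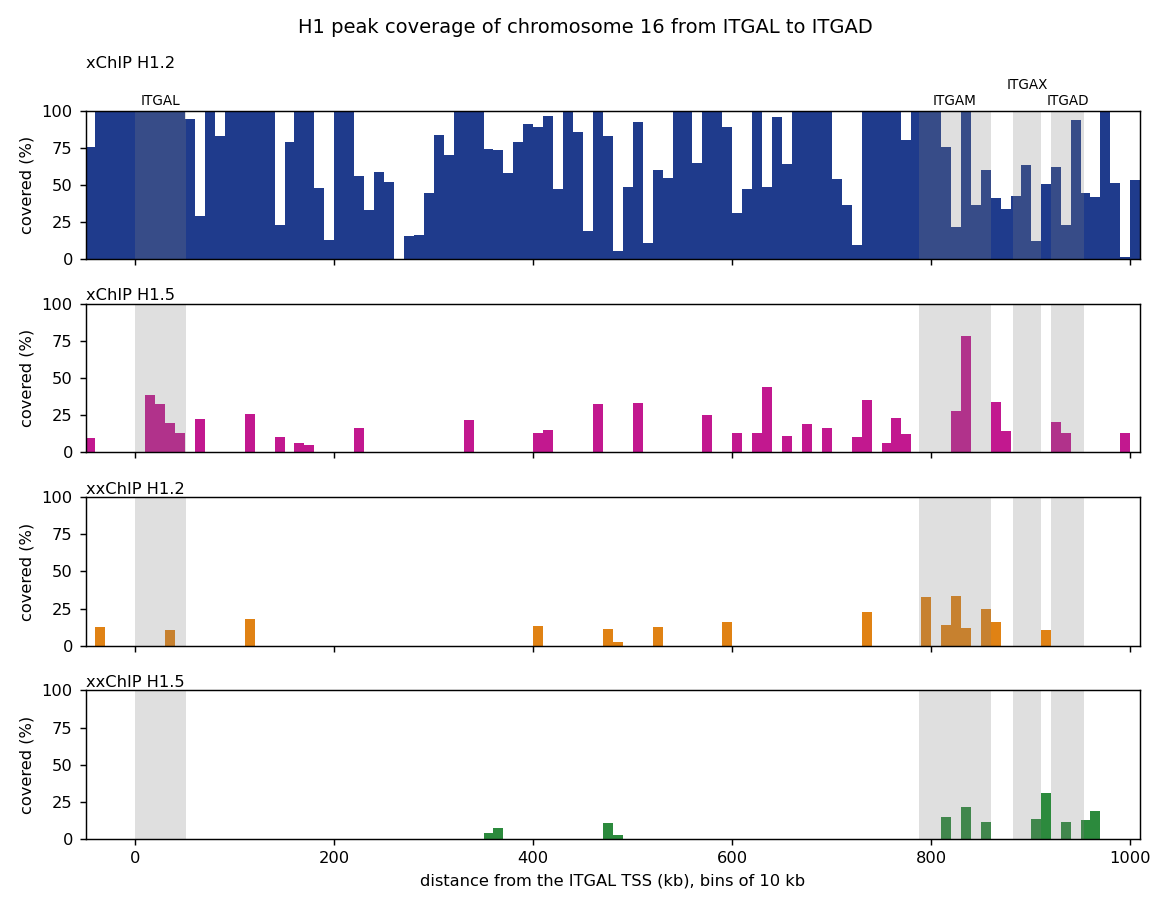
Percent of bases covered by each list in bins of 10 kb (y axis) along chromosome 16, by distance in kb from the ITGAL TSS (x axis), with grey bands over the 4 integrin genes. The xChIP H1.2 list covers most of the interval between ITGAL and ITGAM (72.8%), and both xxChIP lists have their densest bins over and between ITGAM, ITGAX and ITGAD.

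Genes next to ITGAL were covered more by xChIP H1.2 than genes next to the adjacent trio. Of 14 other protein-coding genes within 100 kb of ITGAL, 13 were covered over at least 50% of the body by xChIP H1.2 (median 91.9%), and 11 had an xChIP H1.2 peak at the TSS, beside 31% and 48.2% of all genes. Of 10 near ITGAM, ITGAX or ITGAD, 3 were covered over at least 50% (median 33.1%) and 7 had an xChIP H1.2 peak at the TSS. The 3 were TRIM72 and PYDC1, both covered in full, and PYCARD (88.4%), the inflammasome adaptor ASC, all of which lie before ITGAM. After ITGAD, xChIP H1.2 covered 44.2% of the body of ZNF843, 34.4% of TGFB1I1 and 24.8% of SLC5A2. No bases of the bodies of COX6A2, ARMC5 or RUSF1 were covered by it, but it covered 36.8% of the TSS ± 1000 bp of ARMC5 and 0.5% of that of RUSF1. None of these 24 neighbors had an xxChIP peak at the TSS, a state they share with 86.4% of all genes.

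Within the 7 genes the lists overlapped unevenly. The xChIP H1.5 bases lay inside xChIP H1.2 peaks entirely in ITGAL, over 87.3% in ITGAD and over 74.5% in ITGAM, and not at all in ITGB2 and ITGA4. The xxChIP bases of either isotype lay inside xChIP H1.2 peaks over 100% in ITGAL, ITGAD and ITGB7, 89.9% in ITGAX and 80.4% in ITGAM, but over 21.3% in ITGB2 and 9.71% in ITGA4. Where xChIP H1.2 covers the whole gene, as in ITGAL, such an inclusion is fixed by that coverage. In the other genes it also depends on that coverage, which was 71.8% in ITGAM, 63.6% in ITGAD and 57.9% in ITGB7. It was 42.4% in ITGAX, 39.2% in ITGB2 and 4.93% in ITGA4. The same inclusions were not computed over all genes, and whether they exceed what this coverage gives was not tested. No base of any member was in all 4 lists. This was fixed in ITGAL, ITGAX, ITGAD and ITGB7, whose bodies lacked peaks of some lists altogether, and the share over all genes was not counted. Exons were covered less than introns by xChIP H1.2 in 4 of the 6 members that were covered in part, beside 73.7% of all such genes. The gap was widest in ITGB7 (14.5% of exon bases and 74.7% of intron bases) and smaller in ITGAX (30.4% and 46.4%), ITGAD (52.8% and 65.2%) and ITGAM (62.5% and 72.5%). In ITGB2 exons were covered more (47.1% and 37.7%), and in ITGA4 both stood at 4.93%. No exon base of ITGAM or ITGAD was in an xChIP H1.5 peak, and ITGAX had no such peak in its body. ITGAM and ITGAD had only 2 of these peaks each. Exons made up 5688 of 72926 bp in ITGAM and 4388 of 33171 bp in ITGAD, and the share over all genes was not counted.

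Across all genes, GC content went with the coverage by each list except xChIP H1.5. Over the TSS ± 50 kb of all 20098 genes, GC content correlated with coverage by xChIP H1.2 (Spearman rho 0.563, Pearson r 0.508) and inversely with coverage in xxChIP, both of H1.2 (rho −0.604, r −0.525) and of H1.5 (rho −0.516, r −0.440), while xChIP H1.5 showed little relation (rho 0.0349, r 0.0607). These are descriptions across genes, many of which share windows. ITGA4 lay in the most AT-rich window of the 7, with 37.1% GC (5.72% of all genes were lower) and the least xChIP H1.2. ITGAL (49.1% GC), ITGAM (46.4%), ITGAX (48.1%), ITGAD (50.8%) and ITGB7 (51.1%) were above the median of 44.2% and above the median in xChIP H1.2. The order within them did not follow GC content, since ITGAM, the lowest of these 5 in GC, had 87.8% coverage by xChIP H1.2, and ITGB2, the highest member at 57.5% GC, had 49.6%. The part of base composition in the coverage was not tested.

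**Figure D4:**
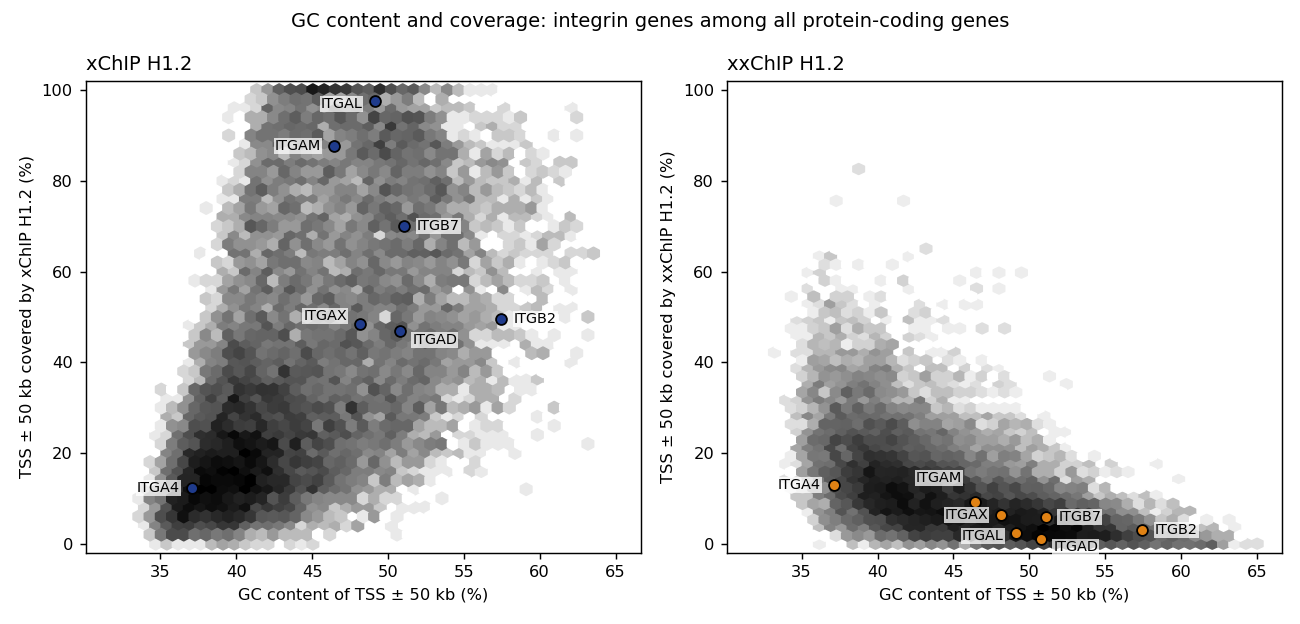
GC content of the TSS ± 50 kb (x axis, percent) against the percent of that window covered by xChIP H1.2 (left) and xxChIP H1.2 (right). Grey hexagons count all 20098 protein-coding genes on a log scale (darker is more) and colored points are the 7 integrin genes. ITGA4 sits at the AT-rich end with 12.2% coverage by xChIP H1.2, and ITGB2 has the highest GC content but not the highest coverage.

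Because uniquely mappable reads were kept, sequence found more than once in the genome could have lost reads. The read length was not known here, so words of 50 bp were used in its place. These words do not take into account that the reads were paired. The share of 50-bp words of the gene body that occur again in hg19 on either strand was 17.6% in ITGAM, 11.1% in ITGAL, 6.63% in ITGAX, 6.00% in ITGAD, 3.91% in ITGB2, 2.95% in ITGB7 and 1.81% in ITGA4. ITGAM, ITGAX and ITGAD are related genes, but few of these words were shared among them: ITGAX and ITGAD had 143 in common, 0.514% of those of ITGAX, and ITGAM and ITGAX had 25. Repeated words were more frequent inside xChIP H1.2 peaks than outside in ITGAM (23.6% and 2.26%), ITGAX (11.5% and 3.02%), ITGAD (6.81% and 4.59%), ITGB2 (6.70% and 2.11%) and ITGB7 (5.10% and 0), and less frequent in ITGA4 (0.919% and 1.85%). In 5 of these 6 genes the xChIP H1.2 peaks thus held the more repeated sequence. The share over all genes was not counted, and the part of this in the coverage was not tested. The other lists went in both directions. In ITGAM the repeated share was 40.8% inside and 13.6% outside xChIP H1.5 peaks, but 15.0% inside and 18.1% outside xxChIP H1.2 peaks.

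Other genes of the adhesion pathway were spread over the same range. Of 19 other integrin genes, 10 had an xChIP H1.2 peak within 1000 bp of the TSS (48.2% of all genes had one) and 6 were covered over at least 50% of the body (31% of all genes), and the median coverage of the TSS ± 50 kb was 24.9%, beside 36.2% over all genes. ITGA7, a laminin receptor chain, and ITGA5, the fibronectin receptor chain, were covered over 77.1% and 76.5% by xChIP H1.2 and over 5.34% and 7.91% by xxChIP H1.2. ITGAV, the αv chain of the vitronectin receptor, and ITGA11, a collagen receptor chain, had the opposite order, with 8.69% and 13.8% for xChIP H1.2 and 50.5% and 39.3% for xxChIP H1.2. An xxChIP H1.2 peak lay at the TSS of 1 of these 19 genes, beside 8.78% of all genes, and an xxChIP H1.5 peak at none, beside 7.92%, so that both counts were near the background.

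Among 13 ligands and counter-receptors, 6 had an xChIP H1.2 peak at the TSS (48.2% of all genes) and none had an xxChIP peak there, as in 86.4% of all genes. The median TSS ± 50 kb coverage by xChIP H1.2 was 43.9%, beside 36.2% over all genes. F11R (junctional adhesion molecule A), a ligand of LFA-1, reached 96.3% and ICAM3 69.9%, whereas VCAM1, a ligand of α4β1, stood at 9.85% and THY1 at 30.4%, with 46.6% by xxChIP H1.2. Of 15 genes for inside-out activation, 7 had an xChIP H1.2 peak at the TSS (48.2% of all genes), and xxChIP peaks were there in 2 for H1.2 (8.78%) and in 1 for H1.5 (7.92%). The TSS counts of both lists of genes were near the background. Their median coverage by xChIP H1.2 was 38.6% of the TSS ± 50 kb. FERMT3 (kindlin-3), which binds β chain tails, was covered over 91.1%, while ILK, the integrin-linked kinase, was covered over 4.33% and the adaptor SKAP1 over 11.3%. Among the rolling receptors, SELP (P-selectin), SELE (E-selectin) and the hyaluronan receptor CD44 had no peak of any list at the TSS. Their TSS ± 50 kb coverage by xChIP H1.2 was 28.3% in SELP, 14.3% in SELE and 24.3% in CD44. The lists were chosen by role and the genes named are from those with the highest and lowest xChIP H1.2 minus xxChIP H1.2 coverage of each list.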

How the data were processed

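The series has 18 samples of HL-60/S4 cells, 12 of them immunoprecipitated for H1.2 or H1.5 by xChIP or xxChIP and 6 of Input. Bowtie2 was used by the authors to align reads to hg19 with up to 2 mismatches, reads that mapped uniquely were kept, MUSIC called the peaks, and those of 3 replicates were merged. The deposited files hold the positions of the merged peaks in other units than counts or signal, namely chromosome, start and end, with no score. Merging can lengthen peaks and does not record how many replicates support one, and the depth is unknown. The Input samples have no list here and were not used.

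Gene models were those of GENCODE v44 on GRCh37 (hg19), and coverage was the share of window bases inside peaks, with a peak counted from 1 shared bp. Promoter strings were searched from 250 bp before to 50 bp after the TSS, and words of 50 bp were counted over the genome. The members, lists and strings were chosen with earlier results of these data known. The genes named are the 7 members, up to 4 genes of each pathway list with the highest and lowest xChIP H1.2 minus xxChIP H1.2 coverage of the TSS ± 50 kb, neighbors within 100 kb of a chromosome 16 member, and the 3 genes on other chromosomes nearest to each member over 12 coverage values. Some named genes and promoter sequences are not reported here. The coverage and word counts were tested on simulated intervals and sequences. Python 3.11.15, numpy 2.4.6, pandas 2.3.3, numba 0.67.0, pyfaidx 0.9.0.4 and samtools 1.23.1 were used.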

Additional observations from a re-analysis of the deposited data

How the results depend on the processing

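No paired analysis was possible because each list is already a merge of its replicates, and for the same reason no replicate could be left out. In all, 44 of the alternative values moved, 2 reversed in sign and 30 were equal or close (counts within 1.5 times). The number of members with an xChIP H1.2 peak at the TSS ranged from 4 to 6. The number of members with at least 50% of the body covered by xChIP H1.2 fell from 4 to 1 when 75% was asked for. The number with an xChIP H1.5 peak at the TSS fell from 2 to 1 with ± 500 bp, with canonical starts or with at least 50% of the window covered, and to 0 with peaks of at least 2000 bp. With ± 2500 bp, 1 member had an xxChIP H1.2 and 1 an xxChIP H1.5 peak, and with canonical starts 1 had an xxChIP H1.2 peak.

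The remaining values are chromosome 16 minus the other members, in percentage points, with H1.2 before H1.5 and xChIP before xxChIP. In the gene body they were 35.4, 4.84, −3.26 and −1.29 as reported. They became 51.9, 3.59, −1.18 and −1.99 with bases summed over genes, 25.2, 1.76, −2.46 and 0.266 with the adjacent trio in place of the 4 genes, 33.0, 1.31, 0.739 and −4.04 with peaks of at least 2000 bp, and 36.3, 4.28, −2.69 and −2.80 with canonical gene bodies. Over the TSS ± 50 kb they were 26.2, −9.93, −2.60 and −1.70 as reported. They became 28.6, −6.63, −4.61 and −2.29 with ± 25 kb, 18.8, −8.73, −3.41 and −2.62 with ± 100 kb, 19.4, −11.2, −5.18 and −2.89 with the gene body and 50 kb on either side, 17.1, −10.2, −1.80 and −0.178 with the adjacent trio, and 25.0, −8.85, −3.02 and −3.81 with peaks of at least 2000 bp. With canonical starts the xChIP values became 25.9 and −8.70. The canonical alternatives for these differences were added after seeing the data. The sign of the xChIP H1.2 difference held in all of them, and the causes of the movements were not tested. The lists carry no heights or depth, so that a weak and a strong peak count alike and a base outside peaks is not shown to lack H1.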

Other observations

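In xChIP, 22 peaks of H1.2 and 14 of H1.5 touched a member gene, with median lengths of 2780.5 and 2031.5 bp, beside 2335 and 2101 bp in the full lists. In xxChIP, 14 peaks of H1.2 and 9 of H1.5 did so, with medians of 1470.5 and 1367 bp, beside 2167 and 2033 bp. The longest xxChIP peaks of the members were the 4673 bp H1.2 peak in ITGAM and the 6593 bp H1.5 peak in ITGB2.

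Each member was set beside genes on other chromosomes by the Euclidean distance over 12 values, the coverage in percent of 3 windows by 4 lists. The nearest to ITGAL was SNX8, a sorting nexin gene, at a distance of 5.17, with 100% of its body and 96.9% of its TSS ± 50 kb covered by xChIP H1.2. NUP98, a nucleoporin gene, was nearest to ITGAM (9.22), BICRA to ITGAX (8.75) and MYRF to ITGAD (10.6). MSN, which encodes the membrane linker moesin, was nearest to ITGB2 (18.4), ARHGEF6 to ITGA4 (7.49) and MAMDC4 to ITGB7 (13.2). Median distances from a member to all genes ran from 70.1 for ITGAX to 139 for ITGAL. Among the members themselves ITGAM and ITGB7 were closest, at 34.1, ahead of ITGAL and ITGAM at 35.0, and ITGAL and ITGA4 were farthest apart, at 163. ITGAX was nearer to ITGB2 (52.9) and ITGA4 (56.5) than to its neighbor ITGAD (92.4), a gene with which it shares 61.8% of its TSS ± 50 kb. The TSS ± 1000 bp values weigh heavily in these distances, since most of them are 0 or 100%.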
